A study of Mus musculus with 6 samples.

Results

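Klf2, S1pr1, Tcf7, Lef1, Foxo1, Bach2, Id3, Satb1 and Cd69 are genes known for their part in naive and memory T cells. They were taken by symbol from the deposited count table, where each of the 9 symbols was found once among 54532 genes. Their levels were compared between CD4+ T cells cultured under Th1 conditions with and without ALX-5407, a compound that blocks GlyT1 (a transporter of glycine), to see how this gene group differed with the compound. Transport of glycine is not measured in these data.

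RNA was sequenced from 6 cultures. Per the study's methods, CD4+ T cells were taken from spleens of male C57BL/6 mice aged 6 to 8 weeks by negative selection on magnetic beads. They were stimulated with plate-bound anti-CD3 and soluble anti-CD28 in medium with IL-2, IL-12 and anti-IL-4, the mixture that drives CD4+ T cells to the Th1 fate. Of the 6 cultures, 3 were controls, which the methods describe as given vehicle (0.1% DMSO), and 3 were given 500 nM ALX-5407. The study reports that viability started to fall at this concentration and that apoptosis was higher with the compound. Their part in the changes described here was not tested. The labels give 72 h under Th1 conditions for both groups and do not separate the time with the compound, for which the methods give 24 h, so the length of exposure is uncertain. The labels call the cultures of a group biological replicates but do not say whether they came from separate mice, and the p-values measure only the spread between these cultures. The control columns of the count table (ctrl_1 to ctrl_3) bear names that the labels do not use. They were matched to the cultures without the compound as the remaining group, and replicate numbers in the text are column numbers, which may not be those of the labels. Total counts per library were 33432304, 32518060 and 30801753 in the controls and 34735568, 36727788 and 34142475 with ALX-5407.

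Naive and memory T cells keep a transcriptional program that holds them at rest and lets them circulate. The transcription factor FOXO1, which is removed from the nucleus when AKT is active, turns on Klf2, and KLF2 in turn promotes transcription of S1pr1, the receptor for sphingosine 1-phosphate that T cells need to leave lymphoid organs. TCF1 (the product of Tcf7), LEF1, BACH2, ID3 and SATB1 are nuclear regulators tied to stemness, restraint of effector genes or chromatin organization, and CD69 is an early activation receptor whose protein binds S1PR1 and takes it off the cell surface.

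All 9 genes passed the filter on low counts, with 120 to 39272 counts in a library, and stood among 15938 genes tested. With ALX-5407, 5 of the 9 genes were higher (Klf2, Foxo1, Tcf7, Cd69 and Lef1) and 1 was lower (S1pr1) at a Benjamini-Hochberg adjusted p under 0.05, taken over all genes tested in edgeR's quasi-likelihood test. Over the whole table, 24.5% of the genes were called higher and 23.2% lower by the same rule (3910 and 3695 genes). This balance turned with the scaling, with 4484 higher and 3246 lower by library totals only and 3413 higher and 4158 lower by upper-quartile factors, and the lists below are set beside the first pair. Klf2 was the 1 member that also rose by more than 1 on the log2 scale and S1pr1 the 1 member that fell by more than 1, while 3.36% and 6.68% of all genes tested did so. The values of control and ALX-5407 libraries did not overlap for 5 of the 9 genes (Klf2, S1pr1, Foxo1, Tcf7 and Lef1), against 55.5% of all genes tested. The median log2 fold change was 0.27 over the 9 genes and 0.0053 over all genes tested. The count of members called higher was 3 when ALX-5407 replicate 2, ALX-5407 replicate 3 or control replicate 1 was left out. It was also 3 with upper-quartile factors, protein-coding genes only or a mean of at least 50 counts. It was 6 with library totals only, no filter on low counts or the replicate number as a block. The count called lower was 2 without control replicate 3.

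**Figure D1:**
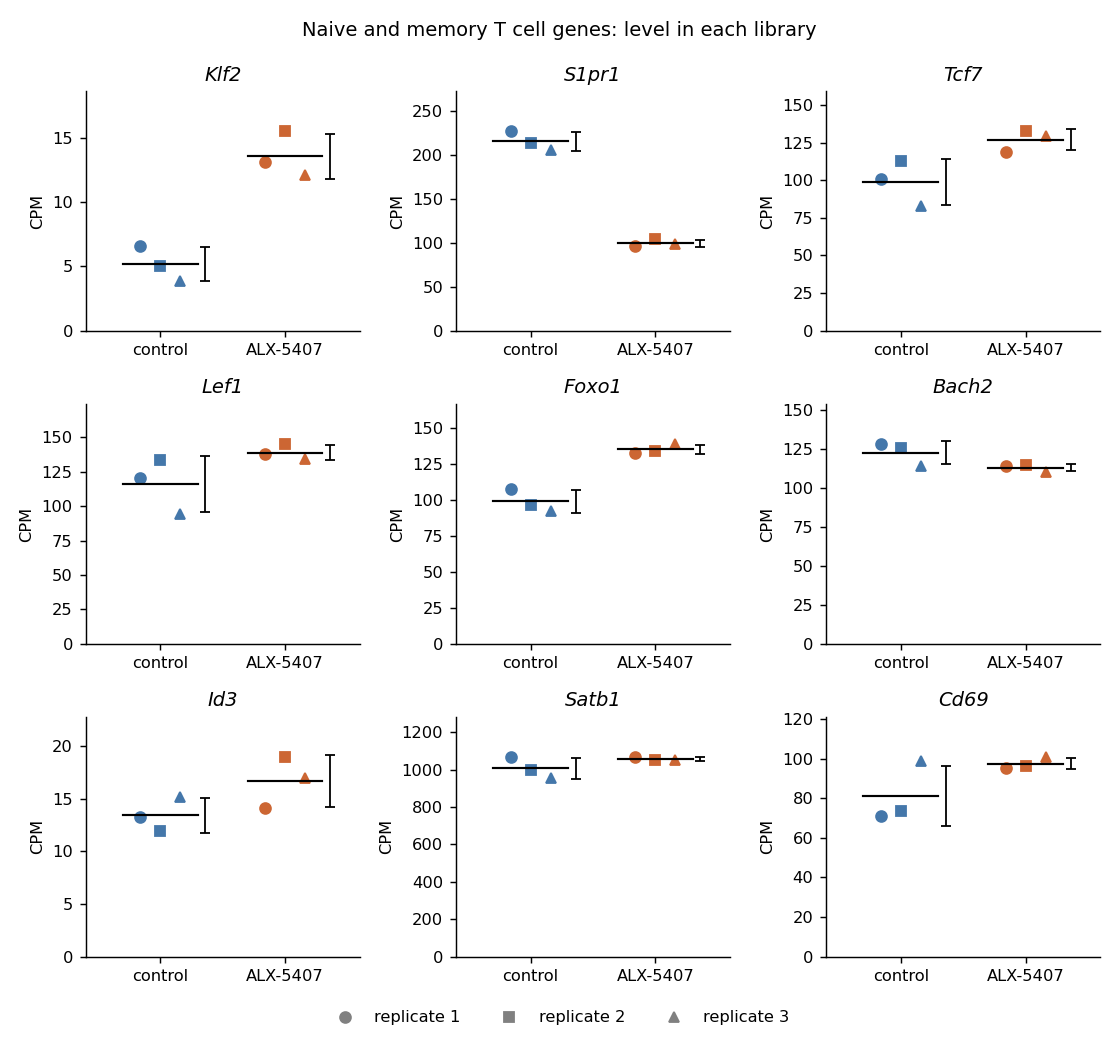
Level of each gene in CPM (counts scaled to library size, vertical axes starting at 0) in the 3 control and 3 ALX-5407 libraries; symbols mark replicates, horizontal lines the means and bars the SD. The Klf2 points with ALX-5407 lie between 12.1 and 15.5 CPM, above all 3 controls, and the S1pr1 points between 95.7 and 104 CPM, below all 3 controls.

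Control replicate 3 was the highest or the lowest of the 3 controls for all 9 members. It was lowest for Klf2, S1pr1, Tcf7, Lef1, Foxo1, Bach2 and Satb1 and highest for Id3 and Cd69. Over all genes tested it was at an end of its group for 74.9%, against 62.3% for control replicate 1 and 62.8% for control replicate 2. ALX-5407 replicate 3 was at an end of its own group for 73.1% of the genes tested. The share of counts on mitochondrial genes was 2.67%, 3.12% and 2.79% in the controls and 2.00%, 1.94% and 2.05% with ALX-5407. Its part in the changes described here was not tested.

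Klf2 (ENSMUSG00000055148, chr8:72319033-72321656, + strand of GRCm38) is the zinc finger factor of the homing program. Its level was 6.57, 5.04 and 3.90 CPM (counts scaled to library sizes that carry a TMM factor) in control replicates 1, 2 and 3. With ALX-5407 it was 13.1, 15.5 and 12.1 CPM. Every ALX-5407 library was above every control, and the controls spread more for their level, with a coefficient of variation of 25.9% against 13.0%. Between the groups it differed by 1.39 on the log2 scale (standard error 0.170, Benjamini-Hochberg adjusted p = 5.51e-06, edgeR quasi-likelihood), 2.62-fold on the linear scale, with 120 to 214 counts in a control library. No other annotated gene shares exon bases with Klf2.

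S1pr1 (ENSMUSG00000045092, chr3:115710433-115715072, - strand) moved the other way. Its level was 226, 213 and 205 CPM in the controls, and 95.7, 104 and 98.0 CPM with ALX-5407. The groups were far apart and tight, with coefficients of variation of 4.99% and 4.18%. S1pr1 fell by 1.12 on the log2 scale (standard error 0.0718, Benjamini-Hochberg adjusted p = 6.75e-09, edgeR quasi-likelihood), so that the controls held 2.17 times the level with ALX-5407. It ranked 87 by p among all genes tested, and Klf2 ranked 1115. The ratio of S1pr1 to Klf2, both per kb of counted exon, was 20.9, 25.7 and 31.9 in the controls and 4.43, 4.06 and 4.93 with ALX-5407. In bulk RNA, fewer cells of a type and less RNA per cell cannot be told apart, and this holds for S1pr1 and for every gene below.

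Cd69 (ENSMUSG00000030156, chr6:129267325-129275436, - strand) was measured at 71.3 and 73.4 CPM in control replicates 1 and 2 and at 98.8 CPM in control replicate 3. In the ALX-5407 libraries it was 95.3, 96.6 and 101 CPM. Control replicate 3 thus lay inside the range of the ALX-5407 group, and the groups overlapped. Its change was 0.27 on the log2 scale (standard error 0.102, Benjamini-Hochberg adjusted p = 0.0412, edgeR quasi-likelihood), with adjusted p-values from 9.39e-05 to 0.222 over the alternatives. The call rested on single libraries. Without control replicate 3 the log2 fold change was 0.42 and remained past the threshold, whereas it was 0.17 without control replicate 1, 0.19 without control replicate 2, and 0.29, 0.28 and 0.25 without ALX-5407 replicates 1, 2 and 3, each no longer past it. The ratio of S1pr1 to Cd69 per kb was 6.79, 6.21 and 4.44 in the controls and 2.15, 2.29 and 2.08 with ALX-5407.

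Foxo1 (ENSMUSG00000044167, chr3:52268336-52353221, + strand) encodes the forkhead factor that stands above Klf2. It was at 108, 96.8 and 92.4 CPM in the controls. With ALX-5407 the values were 133, 134 and 139 CPM. The lowest ALX-5407 library exceeded the highest control, and the coefficient of variation was 7.89% in the controls and 2.34% with ALX-5407. Foxo1 rose by 0.45 on the log2 scale (standard error 0.0743, Benjamini-Hochberg adjusted p = 1.08e-04, edgeR quasi-likelihood). The antisense gene Gm20402 covers 7.78% of the exon bases of Foxo1 but had 0 counts in every library.

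Motifs of the members' own protein families were searched in the 250 bases before start sites in RefSeq (GRCm38.p6). RefSeq promoter entries were found for 7 of the 9 genes, and not for S1pr1 and Cd69. Of these windows, those of Foxo1 and Klf2 are shown because FOXO1 stands above Klf2, and that of Lef1 because it holds the most KLF matches of the 7. The windows are chr8:72318812-72319061 (+ strand) for Klf2, chr3:52268087-52268336 (+ strand) for Foxo1 and chr3:131110073-131110322 (+ strand) for Lef1, whose entry is 1 of 4. The last 29 bases of the Klf2 window lie inside its first exon as the count table places it. Capitals mark matches, on either strand, to the motif letters GTAAACA (forkhead), CACCC (KLF), CTTTGA (TCF/LEF), CAGCTG (E-box) and TGAGTCA (BACH/MAF), and no matches overlapped.
Klf2: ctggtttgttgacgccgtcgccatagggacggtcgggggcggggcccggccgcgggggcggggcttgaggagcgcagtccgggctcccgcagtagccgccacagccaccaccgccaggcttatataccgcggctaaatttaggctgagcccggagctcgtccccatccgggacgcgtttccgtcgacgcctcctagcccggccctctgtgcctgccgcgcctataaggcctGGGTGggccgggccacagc
Foxo1: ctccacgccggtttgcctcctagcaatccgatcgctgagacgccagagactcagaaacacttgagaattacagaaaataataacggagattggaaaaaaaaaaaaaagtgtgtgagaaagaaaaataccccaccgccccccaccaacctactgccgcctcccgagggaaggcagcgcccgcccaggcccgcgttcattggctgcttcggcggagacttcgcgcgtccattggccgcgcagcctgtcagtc
Lef1: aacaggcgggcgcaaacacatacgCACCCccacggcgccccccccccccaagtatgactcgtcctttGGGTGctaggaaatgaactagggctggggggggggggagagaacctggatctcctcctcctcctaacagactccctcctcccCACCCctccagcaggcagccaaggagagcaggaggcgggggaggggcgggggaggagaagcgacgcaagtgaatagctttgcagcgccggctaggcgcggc
The Klf2 window holds 1 KLF match, the Lef1 window 3, and the Foxo1 window has none of the 5 motifs. Among the windows not shown, that of Tcf7 holds 2 KLF and 1 E-box match, those of Id3 and Satb1 2 KLF matches each and that of Bach2 1 TCF/LEF match. In the Tcf7 window a reading frame runs from an atg to the window's end without a stop codon, and it includes the E-box match. Whether these bases are coding exon of a Tcf7 transcript was not tested. The Tcf7 window is 1 of 2 entries and the Satb1 window 1 of 5. Those of Id3 and Bach2 lie inside the genes as counted and end at base 325 and base 178631 of them. Of 32851 RefSeq promoter windows of this length, 52% hold the KLF letters, 3.17% the forkhead, 13.8% the TCF/LEF, 13% the E-box and 4.46% the BACH/MAF letters. A match is a stretch of letters and says nothing of binding.

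Tcf7 (ENSMUSG00000000782, chr11:52252371-52283014, - strand), which encodes TCF1, was at 100, 113 and 82.7 CPM in the controls and at 119, 132 and 129 CPM with ALX-5407. All ALX-5407 libraries were above all controls, and control replicate 3 was lowest. Tcf7 rose by 0.36 on the log2 scale (standard error 0.0953, Benjamini-Hochberg adjusted p = 0.00486, edgeR quasi-likelihood), and it was 0.235 and still past the threshold without control replicate 3.

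Lef1 (ENSMUSG00000027985, chr3:131110471-131224356, + strand), the partner of TCF1 at many sites, was at 120, 134 and 94.3 CPM in the controls. Its ALX-5407 libraries were at 138, 145 and 134 CPM. The groups touched but did not overlap, since control replicate 2 was at 133.8 CPM and ALX-5407 replicate 3 at 134.2 CPM, and control replicate 3 was again lowest. Lef1 rose by 0.26 on the log2 scale (standard error 0.0997, Benjamini-Hochberg adjusted p = 0.0416, edgeR quasi-likelihood), with adjusted p-values from 0.00403 to 0.200 over the alternatives. It was 0.11 without control replicate 3, 0.28 without control replicate 1, and 0.27, 0.23 and 0.29 without ALX-5407 replicates 1, 2 and 3, each no longer past the threshold, and 0.36 and past it without control replicate 2. The antisense gene Gm43352 covers 13.8% of the exon bases of Lef1, with 6 to 24 counts per library. Per kb, the ratio of Tcf7 to Lef1 was 2.80, 2.82 and 2.94 in the controls and 2.89, 3.06 and 3.23 with ALX-5407.

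**Figure D2:**
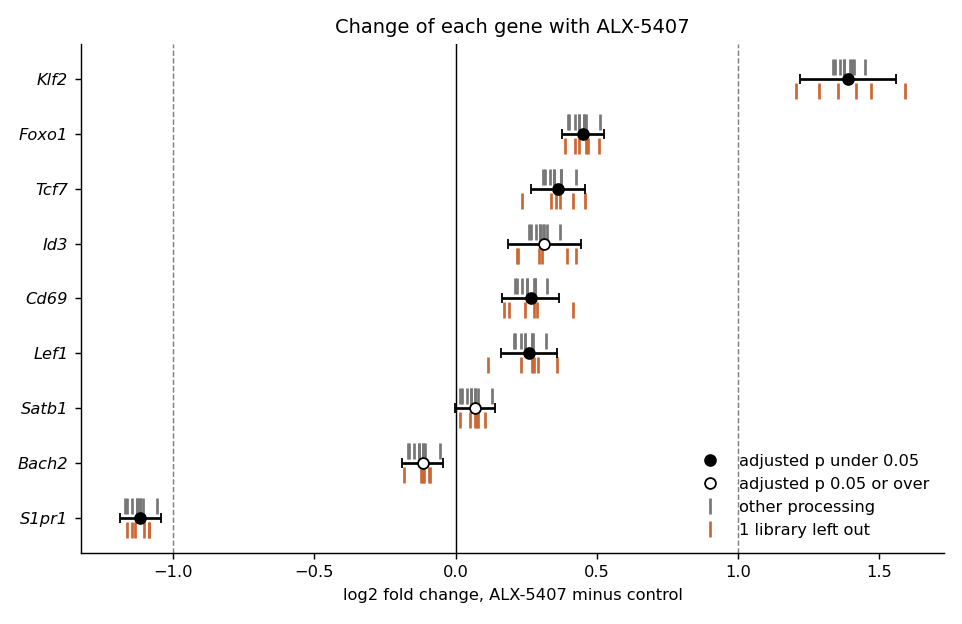
Log2 fold change of each gene (horizontal axis, ALX-5407 minus control) with its standard error; filled circles have adjusted p under 0.05, grey ticks are 9 other ways of processing and orange ticks leave out 1 library each. Klf2 at 1.39 and S1pr1 at -1.12 lie beyond the dashed lines at 1 and -1, and the other 7 genes lie between -0.12 and 0.45.

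Satb1, Bach2 and Id3 did not pass the test. Satb1 (ENSMUSG00000023927, chr17:51736187-51833290, - strand), an organizer of chromatin in T cells, had the highest counts of the 9 genes. Its controls were at 1066, 999.97 and 955 CPM and its ALX-5407 libraries at 1067, 1053 and 1049 CPM. Control replicate 1 lay among the ALX-5407 libraries, whose coefficient of variation was 0.889%. For Satb1 the fitted change was 0.069 (log2; standard error 0.0697, Benjamini-Hochberg adjusted p = 0.444, edgeR quasi-likelihood). Bach2 (ENSMUSG00000040270, chr4:32238804-32586108, + strand), a repressor of effector genes, was at 128, 126 and 114 CPM in the controls and 114, 115 and 110 CPM with ALX-5407. Control replicate 3 lay inside the ALX-5407 range. For Bach2 it was -0.12 (log2; Benjamini-Hochberg adjusted p = 0.194, edgeR quasi-likelihood, 0.0279 to 0.528 over the alternatives), and without control replicate 3 it was -0.18 and past the threshold. The antisense gene Bach2os, with 45 to 252 counts per library, covers 5.40% of the exon bases of Bach2. Whether the counting used strand is not given in the sources used here, so reads of Bach2 and Lef1 cannot be fully separated from those of their antisense genes. Satb1 shares 0.673% of its exon bases with Gm6934 on the opposite strand (77 to 171 counts per library) and 0.820% with Gm36931 on its own strand (178 to 285 counts), so the same holds for these bases.

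Id3 (ENSMUSG00000007872, chr4:136143497-136145755, + strand), an inhibitor of E protein transcription factors, was at 13.2, 11.9 and 15.2 CPM in the controls and at 14.1, 19.0 and 17.0 CPM with ALX-5407. Control replicate 3 was above ALX-5407 replicate 1, so the groups overlapped. For Id3 the fitted change was 0.31 (log2; standard error 0.129, Benjamini-Hochberg adjusted p = 0.0553, edgeR quasi-likelihood, 0.0181 to 0.245 over the alternatives). It was 0.43 without ALX-5407 replicate 1 and 0.39 without control replicate 3, both past the threshold.

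Levels of different genes were compared as CPM per kb of the exon length in the count table, which merges the exons of all transcripts and so understates genes with long or many transcripts, such as Satb1 with 19027 bases over 14 transcripts. In the controls the order was S1pr1 at 70.6 ± 3.52 CPM per kb (SD, n = 3), Satb1 at 52.9 ± 2.92 and Tcf7 at 37.6 ± 5.78 CPM per kb. Lef1 (13.2 ± 2.28 CPM per kb), Cd69 (12.5 ± 2.36), Bach2 (12.3 ± 0.753) and Foxo1 (11.4 ± 0.901) came next and lay within their spread of each other. Id3 at 7.51 ± 0.930 and Klf2 at 2.80 ± 0.726 CPM per kb were the lowest of the 9. With ALX-5407 the order began with Satb1 at 55.5 ± 0.493 CPM per kb, followed by Tcf7 at 48.4 ± 2.70 and S1pr1 at 32.5 ± 1.36. S1pr1 thus went from place 1 to place 3. Lef1 (15.8 ± 0.632 CPM per kb), Foxo1 (15.6 ± 0.366) and Cd69 (15.0 ± 0.451) lay within their spread of each other, Bach2 followed at 11.4 ± 0.237, and Id3 (9.33 ± 1.37) and Klf2 (7.34 ± 0.951) overlapped. Among all genes tested, the level of Klf2 per kb moved from percentile 42.9 to percentile 62.3 and that of S1pr1 from percentile 95.8 to percentile 90.2.

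**Figure D3:**
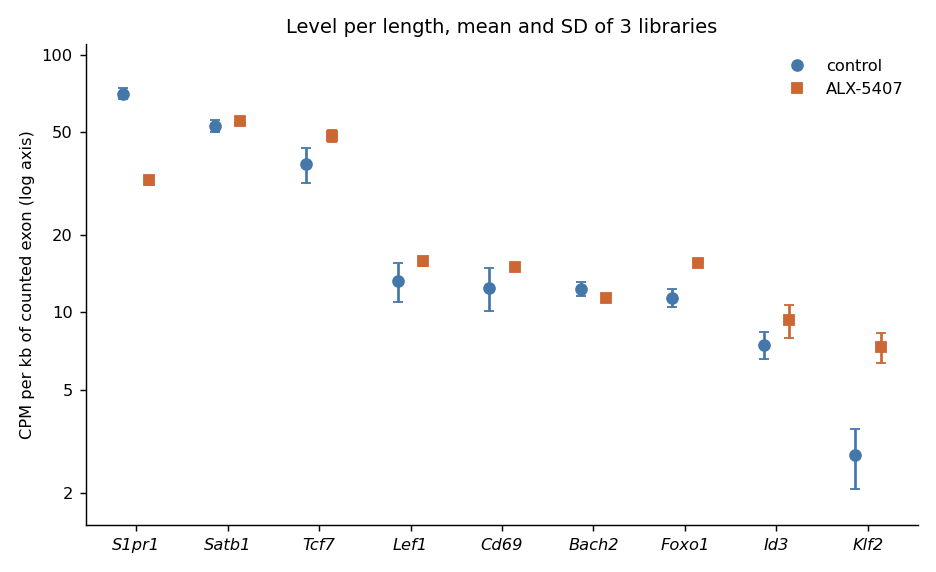
Mean level per kb of counted exon on a log axis, with bars for the SD of 3 libraries, for the controls (circles) and ALX-5407 (squares), ordered by the control level. S1pr1 is at 70.6 in the controls and 32.5 with ALX-5407, and Klf2 at 2.80 and 7.34.

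Genes with a like pattern were sought among 12117 tested genes with a mean of at least 50 counts, by the Euclidean distance between log2 CPM values centered on each gene's mean over the 6 libraries. Nearest to S1pr1 were Dusp16 (distance 0.0527), Lrp1 (0.104) and Ncf1 (0.105). Nearest to Klf2 were App (0.319), the ribosomal pseudogene Rps13-ps2 (0.335), whose reads may come from its parent gene, and Hcn2 (0.352). Foxo1 lay close to Sertad2 (0.0419), Rrp12 (0.0444) and Qsox2 (0.0635). Among the members themselves, Tcf7 and Lef1 were each other's nearest member at a distance of 0.175, and the nearest member to Klf2 was Foxo1 at 1.26. Lta (0.0967) was the gene nearest to Tcf7, Leprotl1 (0.0529) to Lef1, Eml3 (0.0291) to Bach2, Flii (0.0327) to Satb1, Tmed5 (0.0807) to Cd69 and Cenps (0.119) to Id3.

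Around the 9 members, 11 lists of related genes were counted, 182 genes in all with 2 of them on 2 lists. The list of other FOXO1 and KLF2 targets covered homing and other functions, the latter with Irs2, Cdkn1b, Rictor and Cited2. Of its 17 genes, all tested, 4 were called higher and 8 lower, against 24.5% and 23.2% over all genes tested. The median log2 fold change of the list was -0.032, against 0.0053 over all genes tested. The homing receptor Ccr7, its most abundant gene per kb, was at 810, 798 and 722 CPM in the controls and at 556, 556 and 506 CPM with ALX-5407. All ALX-5407 libraries were below all controls, and Ccr7 fell by 0.53 on the log2 scale (Benjamini-Hochberg adjusted p = 2.31e-05, edgeR quasi-likelihood). Il7r, which encodes the receptor of IL-7 and was picked with its values known, fell by 0.35 on the log2 scale. Irs2, Cdkn1b (the cell cycle inhibitor p27) and Rictor fell by 0.69, 0.66 and 0.56. Cited2, Klf3 and the integrin gene Itgb7 rose, with log2 fold changes of 0.90, 0.92 and 0.33. Genes commonly placed downstream of FOXO1 and KLF2 thus included both rising and falling ones, and S1pr1, Ccr7 and Il7r were all lower in cultures where Klf2 and Foxo1 were higher.

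The list of FOXO1 regulators and relatives held 19 genes, and of 18 tested 11 were called higher and 2 lower, with a median log2 fold change of 0.31. Foxo3, which encodes another forkhead factor, went from 85.9 ± 8.29 to 153 ± 10.3 CPM (mean ± SD of 3 libraries each), a log2 fold change of 0.84 (Benjamini-Hochberg adjusted p = 5.63e-07, edgeR quasi-likelihood). The kinase gene Akt1 rose by 0.62 on the log2 scale. The 14-3-3 gene Ywhaz, whose protein holds FOXO factors in the cytoplasm, was the most abundant per kb and rose by 0.26. Without control replicate 1 it was 0.23 and no longer past the threshold. The count called lower was 1 without ALX-5407 replicate 1, ALX-5407 replicate 2, control replicate 1 or control replicate 2.

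Of 21 tested TCF/LEF cofactors and relatives, out of 23 listed, 9 were called higher and 3 lower, with a median log2 fold change of 0.13. The corepressor gene Tle3 went from 224 ± 24.6 to 393 ± 4.50 CPM (mean ± SD of 3 libraries each), a log2 fold change of 0.81 (Benjamini-Hochberg adjusted p = 6.38e-07, edgeR quasi-likelihood), while its relative Tle2 fell by 0.87. Gsk3b, a kinase that marks beta-catenin for breakdown, and Pygo2 rose by 0.40 and 0.44. The most abundant gene per kb, Aes, was at 403 ± 73.6 and 380 ± 35.2 CPM and did not pass the test, with a log2 fold change of -0.084. Without control replicate 3 the value for Aes was -0.24 and passed. Without control replicate 3, 6 genes of this list were called lower.

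The list of BACH2 partners and relatives held 12 genes, of which 10 were tested, 7 called higher and 1 lower. Its median log2 fold change was 0.42. The 7 include Kdm6b, Hmox1 and Men1, which are not relatives of BACH2 and rose by 0.71, 0.38 and 0.24 on the log2 scale. Maf, a transcription factor of the MAF family, was at 50.1 ± 4.44 CPM in the controls and 123 ± 2.41 CPM with ALX-5407 (mean ± SD of 3 libraries each). Its log2 fold change was 1.30 (Benjamini-Hochberg adjusted p = 3.22e-09, edgeR quasi-likelihood). Bach1, the closest relative of Bach2, rose by 0.93, while Maff fell by 0.54 on the log2 scale. A list of E protein and ID family genes with Cxcr5 and Bcl6, which belong to neither family, held 8 genes, with 7 tested, 3 called higher, 2 lower and a median of 0.27. The 5 tested E protein and ID genes alone had 3 called higher, 1 lower and a median of 0.33. Id2, the most abundant per kb, rose by 0.43, and the E protein genes Tcf3 and Tcf12 rose by 0.73 and 0.33, while Tcf4 fell by 0.52. Bcl6 fell by 0.64, and without ALX-5407 replicate 1 it was at -0.45 and no longer past the threshold, which left 1 gene of the list called lower.

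SATB1 relatives and partners numbered 12, with 11 tested, 4 called higher and 2 lower, and a median log2 fold change of 0.13. Bcl11b, a factor that maintains T cell identity, rose from 132 ± 8.13 to 275 ± 16.6 CPM (mean ± SD of 3 libraries each), a log2 fold change of 1.06 (Benjamini-Hochberg adjusted p = 1.89e-08, edgeR quasi-likelihood). Runx3, the most abundant per kb, fell by 0.52. When libraries were scaled by their totals only, 7 genes of the list were called higher. Among quiescence genes, 20 of 21 were tested, 9 called higher and 5 lower, with a median of 0.13. Slfn2 and Klf13 rose by 1.15 and 0.75, Dapl1 fell by 2.23 and Klf6 by 0.35 on the log2 scale, and Ets1, the most abundant per kb, was at 956 ± 15.5 and 975 ± 26.0 CPM. Without ALX-5407 replicate 3, 3 quiescence genes were called lower.

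Of 19 genes for sphingosine 1-phosphate metabolism, receptors and their signaling, 18 were tested, with 4 called higher, 4 lower and a median log2 fold change of 0.017. The receptor gene S1pr3 went from 9.74 ± 1.82 to 1.36 ± 0.218 CPM (mean ± SD of 3 libraries each) and fell by 2.84 on the log2 scale (Benjamini-Hochberg adjusted p = 1.40e-08, edgeR quasi-likelihood). S1pr2 rose by 0.40. Rgs2 and Rgs1, which encode regulators of G protein signaling, fell by 1.69 and 0.40. Gnai2, the most abundant per kb, was at 777 ± 77.1 and 716 ± 9.48 CPM and did not pass the test, with a log2 fold change of -0.12. Without control replicate 3 the value for Gnai2 was -0.21 and passed.

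Activation receptors listed with Cd69 numbered 17, of which 16 were tested, 3 called higher and 9 lower, with a median log2 fold change of -0.46. Cd83 went from 44.6 ± 4.65 to 7.06 ± 0.497 CPM (mean ± SD of 3 libraries each) and fell by 2.66 on the log2 scale (Benjamini-Hochberg adjusted p = 4.64e-11, edgeR quasi-likelihood). Tnfrsf9, the most abundant per kb in the controls, and Tnfrsf18 fell by 0.69 and 0.59, and Cd28 and the IL-2 receptor gene Il2ra rose by 0.52 and 0.44. The count called higher was 5 without control replicate 3. Cd69 itself was above 0 on this scale, and the median of its list below.

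Among 19 memory T cell genes, all tested, 7 were called higher and 3 lower, with a median log2 fold change of 0.095. Slamf6 rose by 0.95 and Eomes by 1.05, the latter from 2.50 ± 0.619 to 5.17 ± 0.337 CPM (mean ± SD of 3 libraries each), and Cxcr4 and Ly6c2 fell by 0.59 and 0.63 on the log2 scale. The IL-2 receptor gene Il2rb, the most abundant per kb, rose by 0.27. Of 17 effector transcription factors, all tested, 7 were called higher and 8 lower, with a median of -0.032. Prdm1, which encodes BLIMP1, a repressor of naive T cell genes, was at 19.0 ± 0.967 CPM in the controls and 89.7 ± 8.01 CPM with ALX-5407 (mean ± SD of 3 libraries each). Its log2 fold change was 2.24 (Benjamini-Hochberg adjusted p = 4.47e-11, edgeR quasi-likelihood). Hlx and Myc rose by 1.81 and 0.57, and Stat4, Runx2 and Rora fell by 1.16, 0.90 and 0.68. Bhlhe40, the most abundant per kb in the controls, fell by 0.54.

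**Figure D4:**
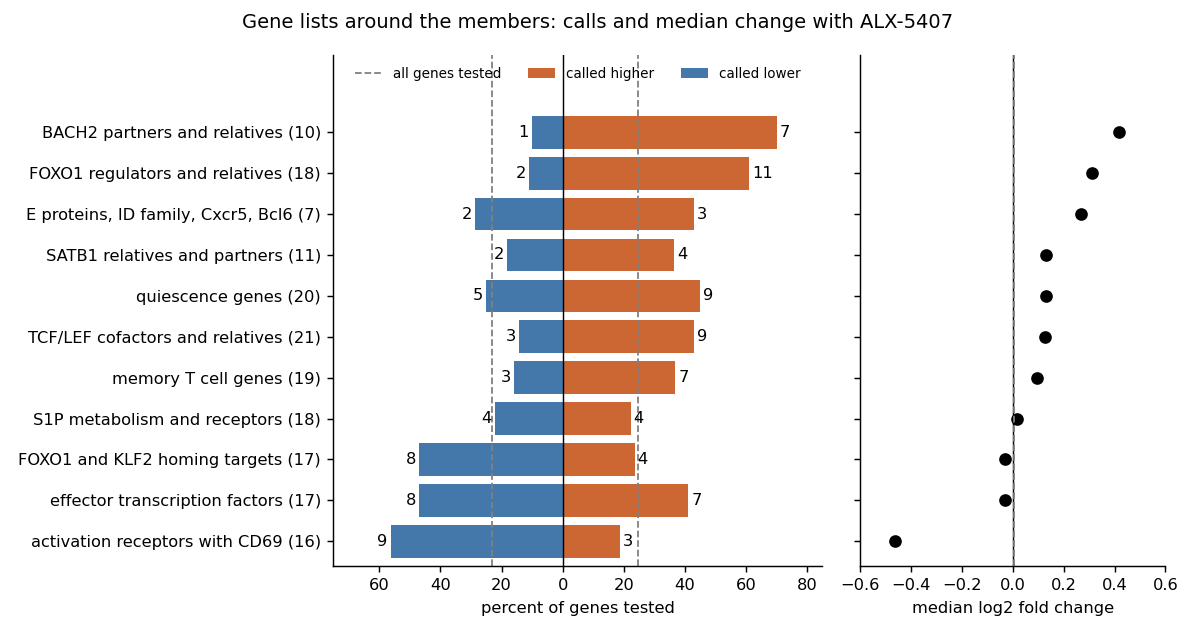
Left, percent of the tested genes of each list called higher (right of 0) or lower (left of 0) with ALX-5407, with counts at the bar ends, genes tested in parentheses and dashed lines at 24.5% and 23.2% for all genes tested; right, median log2 fold change of each list with a dashed line for all genes tested. The list of BACH2 partners and relatives has 7 of 10 genes called higher, among them Kdm6b, Hmox1 and Men1, which are not relatives of BACH2. Activation receptors have 9 of 16 called lower.

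The labelled cell type was checked against 10 marker lists. All 12 T cell markers and all 9 Th1 markers were tested, with 3 higher and 5 lower and with 3 higher and 4 lower. The T cell markers summed to 4640, 4713 and 4335 CPM in the controls and 4416, 4374 and 4257 CPM with ALX-5407, and the Th1 markers to 1535, 1518 and 1402 CPM and 1433, 1387 and 1343 CPM. Without Runx3, their gene of the highest CPM in the controls, the Th1 markers summed to 982, 924 and 990 CPM and 1031, 1013 and 1034 CPM, in the other direction, and the T cell markers without Cd4 to 3977, 4011 and 3764 CPM and 3948, 3893 and 3798 CPM, where the groups overlap. Cd2 and Il12rb2 were the most abundant per kb. Cd4, picked with its values known, was at 663, 703 and 571 CPM in the controls and 468, 481 and 460 CPM with ALX-5407, a log2 fold change of -0.46 (Benjamini-Hochberg adjusted p = 1.74e-04, edgeR quasi-likelihood) with no overlap of the groups. CD8 T cell markers summed to 9.40, 9.25 and 9.59 CPM in the controls and 6.71, 7.56 and 8.87 CPM with ALX-5407, most of it Cd8b1, with 1 of 2 genes called lower. The Treg list, whose sum was led by Il2ra, a gene that activated T cells also express, had 3 of 7 genes higher and 3 lower, at 3782, 3944 and 3368 CPM in the controls and 4160, 4042 and 4130 CPM with ALX-5407. Without Il2ra the Treg list went the other way, from 1500, 1436 and 1454 CPM to 1160, 1122 and 988 CPM, most of it Ctla4, which activated T cells also express. Of the Treg transcription factors on the list, picked with their values known, Foxp3 rose from 12.8 ± 2.16 to 21.2 ± 2.30 CPM (mean ± SD of 3 libraries each; log2 fold change 0.73, Benjamini-Hochberg adjusted p = 2.04e-04, edgeR quasi-likelihood) and Ikzf2 by 0.43 on the log2 scale, while Ikzf4 fell by 0.44.

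Markers of other cell types were counted as well, and several moved with the compound. The 10 B cell markers summed to 30.1, 30.1 and 26.6 CPM in the controls and 25.5, 23.2 and 22.6 CPM with ALX-5407, and of 9 tested 4 were higher and 1 lower. The lower gene was Ebf1, picked with its values known, at 17.6 ± 1.43 and 5.71 ± 0.857 CPM (mean ± SD of 3 libraries each). The sum of the other 9 B cell markers rose, from 11.4, 12.0 and 10.6 CPM to 19.5, 16.8 and 17.9 CPM. The 7 NK cell markers summed to 48.4, 52.4 and 59.5 CPM and 49.4, 39.2 and 44.1 CPM, led by Klrc1, with 3 tested and 2 lower. Without Klrc1 they summed to 10.6, 12.7 and 10.9 CPM in the controls and 6.63, 6.73 and 6.87 CPM with ALX-5407. Ncr1, Klrb1c, Klra4 and Klra8 had at most 9 counts in any library. The 10 myeloid markers, of which 2 were tested and both were lower, summed to 91.6, 96.5 and 85.6 CPM in the controls and 37.001, 30.3 and 31.9 CPM with ALX-5407. Ly6g was their most abundant gene, at 76.6 CPM per kb in the controls and 28.6 CPM per kb with ALX-5407, and S100a8 and S100a9 had 0 counts in every library. Without Ly6g the myeloid markers summed to 20.3, 21.3 and 15.7 CPM in the controls and 5.41, 6.24 and 6.70 CPM with ALX-5407. Most of this was Cd68, with means of 18.3 and 5.44 CPM. Lyz2, Csf1r, Adgre1, Itgam, Cd14 and Fcgr3 had at most 15 counts in any library, so the sum rested on Ly6g and Cd68. Dendritic cell markers summed to 4.05, 4.78 and 4.87 CPM and 3.51, 3.72 and 3.05 CPM, led by Zbtb46, with Siglech at 0 and none of 2 tested called. Endothelial markers summed to 85.1, 83.7 and 76.8 CPM and 65.8, 69.0 and 66.5 CPM, nearly all of it Pecam1, which T cells also express, with Cdh5 at 0 and 1 of 4 tested higher and 1 lower. Erythroid and platelet markers summed to 0.921, 1.59 and 1.66 CPM and 2.72, 3.62 and 1.80 CPM, led by Pf4, with 1 of 3 tested higher. Whether cells of these types were present was not tested, nor was their part in the fall of S1pr1 or in the other changes.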

How the data were processed

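RNA sequencing of 3 control and 3 ALX-5407 cultures was analyzed. The authors deposited raw counts of reads per gene, not normalized, with gene lengths and GRCm38 coordinates. The submitters' processing notes name fastp, HISAT2 2.0.5, featureCounts 1.5.0-p3 and the build mm10. Strand use and the treatment of reads that map to several places are not given in the sources used here. The labels describe capture of RNA on poly-T beads and the methods depletion of ribosomal RNA. All 9 members have the same coordinates in GENCODE M21, from which exon overlaps were taken.

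From the counts, groups were compared in edgeR 4.0.16 (R 4.3.3) after filterByExpr and TMM scaling, using the quasi-likelihood test (ALX-5407 minus control), and p-values were adjusted over the 15938 genes tested by the Benjamini-Hochberg method. Genes were called at an adjusted p under 0.05, also with an absolute log2 fold change over 1. An exact permutation test of 3 against 3 libraries cannot give a two-sided p under 0.1. Within a group, no pair of libraries agreed to within sampling noise (chi-square per degree of freedom 5.65 to 22.4). The procedure was tested on simulated counts, in which far fewer genes changed than were called here and all genes shared the same dispersion. That test does not cover how the calls depend on the scaling or on single libraries. Total counts were 30801753 to 36727788 per library, and the biological coefficient of variation was 0.0978.

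The members and the lists were chosen with earlier results of these data known. Named genes were all members, up to 3 genes per list and direction with the smallest p among those called, the most abundant gene per kb of each list, markers at 0 and the 3 genes nearest to each member. Not all genes so selected are named, and 4 genes are not reported here. Genes outside this rule are marked in the text as picked with their values known. Alternatives were DESeq2 1.42.0, limma-voom (limma 3.58.1), RLE, upper-quartile and total-count scaling, other filters, protein-coding genes only, a replicate block and each library left out. Python 3.11.15 and matplotlib 3.10.9 drew the figures.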

Additional observations from a re-analysis of the deposited data

How the results depend on the processing

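Of 135 fold changes of the 9 members under 15 alternatives, 112 kept their direction and their side of the threshold, 17 lost the call, 6 gained it and 0 changed sign. Klf2, S1pr1, Foxo1 and Tcf7 kept their calls under all 15. With 1 library left out they ranged from 1.21 to 1.59, from -1.165 to -1.085, from 0.39 to 0.51 and from 0.235 to 0.458 on the log2 scale.

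Lef1 lost its call with RLE size factors (0.245), upper-quartile factors (0.206), a mean of at least 50 counts (0.231) and protein-coding genes only (0.212), and ranged from 0.114 to 0.36 with 1 library left out. Cd69 lost its call with upper-quartile factors (0.212), a mean of at least 50 counts (0.236) and protein-coding genes only (0.218), and ranged from 0.173 to 0.415 with 1 library left out. Id3 gained a call with library totals only (0.37) and with no filter on low counts (0.324), and ranged from 0.217 to 0.428 with 1 library left out. Bach2 ranged from -0.182 to -0.092 and Satb1 from 0.016 to 0.104 in the same way. The causes were not tested.

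Members called higher numbered 3, against 5, under upper-quartile factors, protein-coding genes only and the filter at a mean of 50 counts, 4 with RLE size factors, 6 with library totals only, no filter on low counts and the replicate block, and 3 to 5 with 1 library left out; members called lower numbered 1 to 2. Over all genes, calls past the fold change threshold numbered 536 higher and 1064 lower, but 282 and 594 with a mean of at least 50 counts, where fewer genes were tested, and 603 lower with protein-coding genes only. With 1 library left out, counts called lower ranged from 1 to 2 for FOXO1 regulators, 2 to 6 for TCF/LEF cofactors, 3 to 5 for quiescence genes and 1 to 2 for the list of E proteins with Cxcr5 and Bcl6, and counts called higher from 3 to 5 for activation receptors. With library totals only, 1 FOXO1 regulator was called lower and 7 SATB1 relatives higher. Ets1 changed sign with upper-quartile factors (-0.025), a mean of at least 50 counts (-0.001), protein-coding genes only (-0.019) and without control replicate 3 (-0.002 to 0.055 with 1 library left out), and Aes without control replicate 2 (-0.242 to 0.008 with 1 library left out). Aes (-0.242) and Gnai2 (-0.212) gained a call without control replicate 3, and Ywhaz (0.231) lost its call without control replicate 1.

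With the replicate number as a replicate block, 4071 genes were called higher and 3833 lower, against 3910 and 3695 without it, and Id3 was called at 0.309 (adjusted p = 0.0407 in edgeR, 0.0181 to 0.245 over the alternatives). The deviations of same-numbered libraries correlated at 0.0474, 0.0455 and 0.175, and not every sample correlated best with its own number, since control 1 correlated best with ALX-5407 2 (0.129), so the numbers were not taken to pair the cultures.

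With 30801753 to 36727788 counts per library, Klf2 (120 to 578 counts) and Id3 have the widest standard errors of the 9 genes. Leaving out a library leaves 2 against 3.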
